A study of Mus musculus with 12 samples.

Results

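The TRIM (tripartite motif) genes of mouse aortic smooth muscle cells are described here across 3 culture media. Members were all genes whose symbol was Trim followed by a number and at most 1 letter and that had at least 10 counts summed over the 12 libraries. Of 68 such symbols among 55822 genes in the table, 51 were members, 10 had 1 to 9 counts and 7 had none. The rule used the symbol and the count summed over all media. Through that sum Trim15, Trim30b and Trim30c, which had counts in 1 medium only, were members because of that medium alone, and Trim60 would have missed the minimum without it.

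RNA was sequenced in primary smooth muscle cells of the mouse aorta, which contract the artery wall, in 3 groups of 4 libraries. The naive group received medium that unstimulated macrophages, grown from bone marrow, had conditioned (naive CM). The IFNγ/LPS group received medium from macrophages that had been given 20 ng/mL interferon gamma overnight and then 100 ng/mL lipopolysaccharide for 4 hours (IFNγ/LPS CM). Both kinds of macrophages were washed 4 times and then conditioned fresh medium with 0.3% serum and 10 ng/mL M-CSF, a macrophage growth factor, for 24 hours. Smooth muscle cells were starved in 0.3% serum for 48 hours before a conditioned medium was added and stayed in it for 24 hours. The remaining group was kept in regular medium, for which starvation, serum content and M-CSF are not given, so naive CM may differ from it in more than macrophage products. Strain, age and genotype of the mice are not given. The labels call the libraries biological replicates without saying whether each came from its own animal or culture, and the p-values refer to the scatter among these 12 libraries.

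TRIM proteins are mostly E3 ubiquitin ligases: an N-terminal RING domain recruits an E2 enzyme loaded with ubiquitin, B-boxes and a coiled coil bring the proteins together as oligomers, and a variable C-terminal domain binds the target. Members with a C-terminal PRY-SPRY domain include restriction factors that bind viral proteins and regulators of nucleic acid sensors, and many of them are known to be transcribed in response to interferon. Other members, such as those with bromodomains or NHL repeats, act in gene silencing, RNA control or the cytoskeleton and are expressed in many resting cells. A list of 17 members that are known from mouse or human cells as interferon-inducible (the interferon list) was set against the other 34, called off-list members, some of which are scarce or nearly absent in these cells. The list was drawn up with earlier results of these data known, so contrasts between it and the other members are descriptive.

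Total estimated counts ran from 28097496 to 61493375 per library. Levels are CPM, counts per 1000000 of the library total after TMM scaling, a correction for differences in composition, and a difference was called when edgeR's Benjamini-Hochberg adjusted p over 16140 genes was under 0.05. Smooth muscle markers were present, Acta2 at 280 CPM in regular medium, but Myh11 and Cnn1 were at 0.716 and 0.276 CPM there. The summed level of the 10 markers went from 1105 to 1227 CPM in regular medium to 704 to 797 CPM with naive CM and 231 to 251 CPM with IFNγ/LPS CM. Cald1 made much of it, at 808, 453 and 118 CPM in that order. Between the conditioned media 7 markers were lower in IFNγ/LPS CM (35.8% of all genes were), Mylk was higher, and Des and Cnn1 were not called. With naive CM against regular medium 4 were lower, and Lmod1, Smtn and Mylk were higher. Of 14 macrophage markers, 4 were abundant enough to be tested and all 4 were higher in IFNγ/LPS CM than in naive CM (36.1% of all genes were). Their sum went from 1.57–2.08 CPM in naive CM to 847–959 CPM, of which Mpeg1 alone made 874 CPM on average. The others tested were Csf1r (0.203 to 4.62 CPM), Cd68 (1.07 to 6.19 CPM) and Lyz2 (0.0785 to 0.472 CPM). Testing required about 0.224 CPM in 4 libraries. Csf1r and Lyz2 averaged less than that in regular medium and in naive CM. They may thus have been tested only through the IFNγ/LPS libraries, and their calls add little. Of the untested markers, Adgre1, Ptprc, Itgam, Spi1, Tyrobp and C1qb were at or under 0.0413 CPM in IFNγ/LPS CM. Fcgr1 and C1qa were at 0 there, Mrc1 at 0.0697 CPM and Cx3cr1 at 0.169 CPM. Lymphocyte markers summed to at most 0.103 CPM in any library and endothelial markers to at most 3.39 CPM. The sum of 6 adventitial fibroblast markers was 1786 to 1944 CPM with naive CM and 6697 to 7382 CPM with IFNγ/LPS CM, made mainly of Dcn and Ly6a. These 2 and Pdgfra were higher in IFNγ/LPS CM, while Dpt (37.5-fold), Pi16 (8.6-fold) and Cd34 (2.95-fold) were lower. The part of these marker differences in the results below was not tested.

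The following windows, each of 250 bases that end just before the RefSeq transcription start, belong to 5 interferon-list genes that hold GAAA, any 2 bases and again GAAA on either strand, the core of the interferon-stimulated response element, and to Trim21, which has no match. Capitals mark the match, which here lies on the opposite strand and therefore reads TTTC, 2 bases, TTTC. Sequences are from RefSeq on GRCm38.p6, 5′ to 3′ on the strand of the gene.
Trim30a (chr7:104465194-104465443, minus strand): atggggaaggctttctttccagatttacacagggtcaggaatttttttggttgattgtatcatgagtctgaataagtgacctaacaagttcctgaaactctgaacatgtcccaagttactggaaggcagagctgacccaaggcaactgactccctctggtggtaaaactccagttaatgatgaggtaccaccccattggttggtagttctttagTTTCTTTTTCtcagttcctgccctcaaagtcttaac
Trim30d (chr7:104507850-104508099, minus strand): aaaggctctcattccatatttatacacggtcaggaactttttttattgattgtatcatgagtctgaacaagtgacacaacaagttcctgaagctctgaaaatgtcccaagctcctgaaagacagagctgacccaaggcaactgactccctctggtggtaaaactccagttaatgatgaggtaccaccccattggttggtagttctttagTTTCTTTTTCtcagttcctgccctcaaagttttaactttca
Trim12c (chr7:104353350-104353599, minus strand): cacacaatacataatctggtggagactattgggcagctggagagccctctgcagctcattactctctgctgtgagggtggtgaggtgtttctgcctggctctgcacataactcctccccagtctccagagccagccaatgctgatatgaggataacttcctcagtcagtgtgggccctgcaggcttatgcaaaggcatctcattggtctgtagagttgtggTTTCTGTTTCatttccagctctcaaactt
Trim5 (chr7:104288107-104288356, minus strand): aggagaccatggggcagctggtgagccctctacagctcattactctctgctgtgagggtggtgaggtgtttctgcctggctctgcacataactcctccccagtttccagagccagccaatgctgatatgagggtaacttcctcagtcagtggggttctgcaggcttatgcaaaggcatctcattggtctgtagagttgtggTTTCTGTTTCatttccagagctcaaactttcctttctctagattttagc
Trim26 (chr17:36836896-36837145, plus strand): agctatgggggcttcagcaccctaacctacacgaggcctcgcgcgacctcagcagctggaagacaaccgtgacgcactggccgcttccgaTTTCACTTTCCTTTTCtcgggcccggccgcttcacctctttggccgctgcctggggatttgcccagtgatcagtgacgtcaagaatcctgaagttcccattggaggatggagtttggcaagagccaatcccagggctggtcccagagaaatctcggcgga
Trim21 (chr7:102565483-102565732, minus strand): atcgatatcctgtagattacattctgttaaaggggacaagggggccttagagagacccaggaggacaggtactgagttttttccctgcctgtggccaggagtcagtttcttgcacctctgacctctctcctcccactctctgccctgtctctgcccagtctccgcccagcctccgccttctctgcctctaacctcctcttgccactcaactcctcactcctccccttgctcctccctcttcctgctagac

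The matches lay 36 to 27 bases before the start in Trim30a, 41 to 32 in Trim30d, 29 to 20 in Trim12c and 49 to 40 in Trim5. Trim26 had a pair of overlapping matches, 160 to 151 and 154 to 145 bases before its start. Over the whole windows Trim30a and Trim30d were identical at 89% of aligned positions and Trim12c and Trim5 at 81.1%, so these matches are not independent of each other. Promoter windows were found for 41 of the 51 members. The paired GAAA letters were in the windows of 5 of 16 interferon-list genes (31.2%) and of none of 25 off-list genes, against 936 of all 27025 genes in the promoter table (3.46%) and 978 of 32851 windows (2.98%). A second motif, TTCNNNGAA, the core of the gamma-activated site, was in the window of 1 interferon-list gene, Trim30c, and of 3 off-list genes, Trim15, Trim45 and Trim46, against 8.13% of all genes. A match is a description of letters, and genes without one may hold the motif outside the window. Trim30a has a second RefSeq start, whose window held no match. For Trim5 the RefSeq start was not found in a GENCODE transcript.

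As a family, TRIM transcripts were higher in IFNγ/LPS CM. The 51 members summed to 1670, 1654, 1688 and 1666 CPM in regular medium, to 1598, 1588, 1611 and 1576 CPM in naive CM and to 3120, 3157, 3138 and 3062 CPM in IFNγ/LPS CM. The IFNγ/LPS libraries were all above the others, and the ratio of the group means was 1.96 against naive CM and 1.87 against regular medium. As an unscaled share of all counts in the library, the family made 0.182% ± 0.00131 (SD, n = 4) in regular medium, 0.174% ± 0.00147 with naive CM and 0.261% ± 0.00262 with IFNγ/LPS CM, 1.5 times the share with naive CM. In bulk RNA, more cells expressing a gene and more transcript per cell cannot be told apart.

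**Figure D1:**
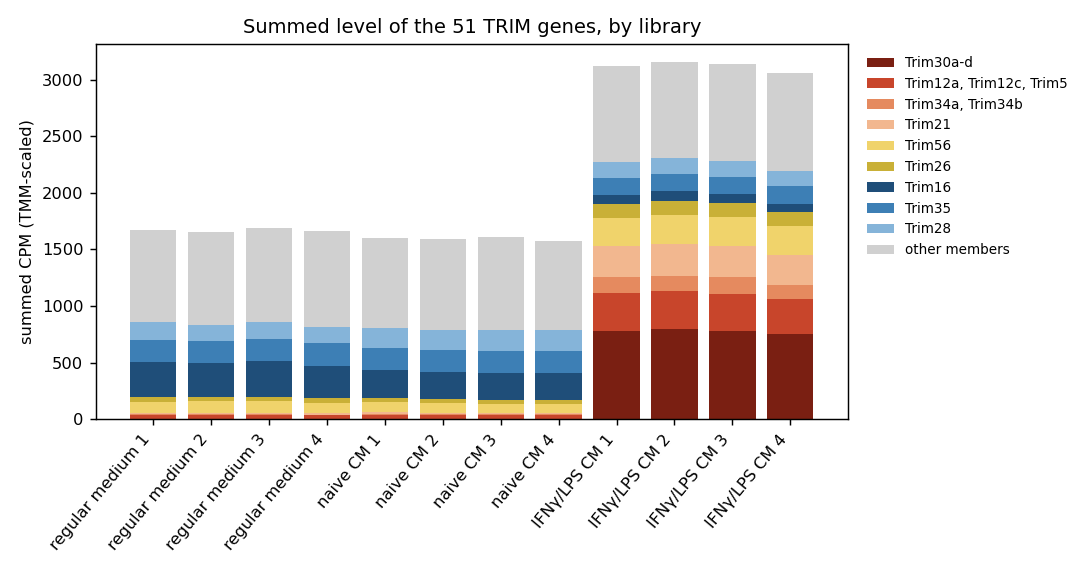
Stacked bars of the summed CPM (TMM-scaled, vertical axis from 0) of the 51 TRIM genes in each of the 12 libraries, split into gene groups; a count-based sum in which longer transcripts weigh more. The bars reach 1576 to 1688 CPM in regular medium and naive CM and 3062 to 3157 CPM in IFNγ/LPS CM, where the Trim30a-d segment (dark red) makes 751 to 795 CPM.

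The makeup of that sum shifted from the off-list members to the interferon list. The 17 interferon-list genes held 12% of the family's CPM in regular medium (200 ± 6.7 CPM, SD, n = 4), 11.5% with naive CM (183 ± 9.62) and 62% with IFNγ/LPS CM (1934 ± 42.9). The off-list members summed to 1470 ± 13, 1410 ± 17.1 and 1185 ± 8.16 CPM in the same order. Their sum was thus lowest in IFNγ/LPS CM in TMM-scaled units, while the interferon-list sum did not overlap between IFNγ/LPS CM and either other group. Much of the lower off-list sum came from Trim16, at 304, 240 and 78.3 CPM in the same order. Not all off-list members fell: of 27 tested, 14 were higher and 11 lower than with naive CM after TMM scaling. Among all genes 36.1% were higher and 35.8% lower. The balance depends on the scaling, since with library totals in place of TMM 8 off-list members were higher and 16 lower.

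Per kilobase of exon the order of the members also changed. In regular medium the leading member was Trim16 at 66.6 CPM per kb, a PRY-SPRY protein that lacks a RING domain and acts in the autophagy of damaged lysosomes. Trim35 and Trim28 followed it there at 43.1 and 35.5 CPM per kb, with Trim44 and Trim47 in the places after them at 21.6 and 16.2 CPM per kb. Under naive CM Trim16 led at 52.5 CPM per kb, ahead of Trim28 at 43.7 and Trim35 at 42.1 CPM per kb. In IFNγ/LPS CM the first 6 places were held by interferon-list genes: Trim30a at 137 CPM per kb, Trim21 at 73.6, Trim34a at 51.5, Trim12c at 43.2, Trim30c at 42.8 and Trim30d at 36.2. Their SDs were 4.23, 1.88, 3.47, 2.04, 2.85 and 1.67 CPM per kb, so that Trim12c and Trim30c stood closer than their spread. Per kilobase of the longest transcript, Trim28 (42.9) came between Trim12c (43.2) and Trim30c (42.8), so the fifth place depends on the length used. Trim30a had been 35th of 51 in regular medium and 33rd in naive CM, and Trim16 was 16th in IFNγ/LPS CM. Averaged over the 12 libraries, the 8 highest members were Trim30a (46 CPM per kb), Trim16 (45.4), Trim35 (39.3), Trim28 (37.6), Trim21 (26.7), Trim44 (21.9), Trim34a (19.1) and Trim47 (17.4).

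IFNγ/LPS CM against naive CM compares the products of stimulated and unstimulated macrophages. Of 43 members abundant enough to be tested, 30 were higher in IFNγ/LPS CM and 11 were lower, and 18 were at least 2-fold higher. The background was high: among all genes tested 71.9% were called, 36.1% higher and 35.8% lower, with 13.9% at least 2-fold higher and 15% at least 2-fold lower. Libraries without overlap were as common: 34.9% of all genes had every IFNγ/LPS library above every naive one, and 34.6% had every one below. The median log2 fold change was 0.83 over the members and 0.00 over all genes. With library totals in place of TMM, which moved the median of all genes to -0.38, 23 members were higher and 16 lower. On the interferon list 16 of 17 genes were tested, and all 16 were higher by at least 2-fold (median log2 fold change 3.54). Of these, 5 (Trim14, Trim30b, Trim30c, Trim34b and Trim69) passed the low-count filter only through the IFNγ/LPS libraries, in which they were high. The other 11 would have been tested without those libraries, and all 11 were higher. Among the off-list members 27 were tested, of which 14 were higher and 11 lower (median log2 fold change 0.15). These counts were 8 higher and 16 lower with library totals, under which 15 of the 16 interferon-list genes stayed higher.

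**Figure D2:**
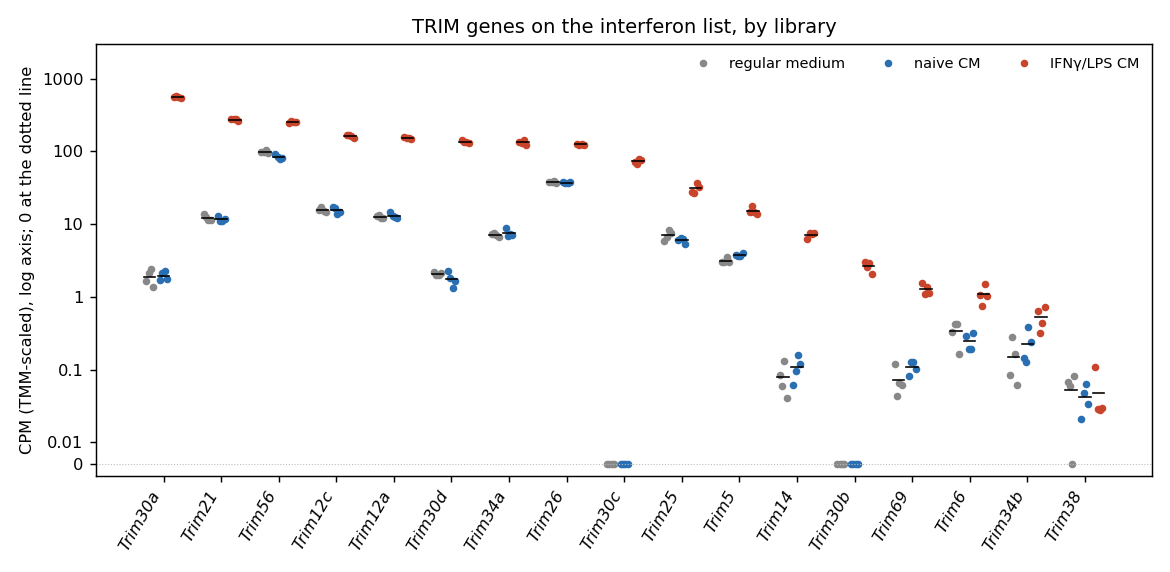
CPM (TMM-scaled, log axis, 0 drawn on the dotted line) of the 17 interferon-list TRIM genes in each library, 4 points per group with a bar at the mean; grey, regular medium; blue, naive CM; red, IFNγ/LPS CM. All genes but Trim38 and Trim34b have every red point above every blue one, and Trim30b and Trim30c have points above 0 in IFNγ/LPS CM only.

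The Trim30 genes showed the widest range. Trim30a, which restrains Toll-like receptor signalling by driving TAB2 and TAB3 to degradation, was at 1.68, 2.15, 2.40 and 1.38 CPM in regular medium, at 1.70, 2.13, 2.25 and 1.78 CPM in naive CM and at 561, 587, 560 and 545 CPM in IFNγ/LPS CM. All 4 IFNγ/LPS libraries were far above the rest, and the log2 fold change against naive CM was 8.17 (SE 0.103, adjusted p = 7.54e-19), or 289-fold. Its neighbour Trim30d, a close relative, was at 2.24, 1.84, 1.32 and 1.64 CPM in naive CM and at 144, 137, 135 and 129 CPM in IFNγ/LPS CM, 75.9-fold higher without overlap (log2 fold change 6.25, SE 0.0869, adjusted p = 1.41e-21). Trim30c had no count in any library of regular medium or naive CM and 70.9, 68.2, 79.4 and 75.3 CPM in IFNγ/LPS CM, from 10412 counts. Against a floor of 3 counts over the naive group it was 4900-fold higher, with an exact 95% lower limit of 3984-fold. Trim30b likewise had no count outside IFNγ/LPS CM, where it was at 3.04, 2.55, 2.96 and 2.09 CPM (379 counts). It was 178-fold above the same floor, with an exact 95% lower limit of 144-fold. Together the 4 genes went from 3.73 ± 0.279 to 776 ± 18.2 CPM, 208-fold, and made 24.9% of the family's CPM in IFNγ/LPS CM. Of the 31-base stretches of Trim30a and Trim30d transcripts, 11.7% and 11.9% occur in other genes, and 5.69% and 2.6% of those of Trim30c and Trim30b, so some of their reads could have been split between them.

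The mouse relatives of primate TRIM5, a factor that binds the capsid of incoming retroviruses, rose together. Trim12a was at 14.6, 12.9, 12.6 and 12.0 CPM in naive CM and at 158, 155, 151 and 149 CPM in IFNγ/LPS CM, 11.8-fold higher (adjusted p = 9.86e-21). Trim12c was at 17.3, 16.9, 14.0 and 14.8 CPM in naive CM and at 166, 168, 162 and 151 CPM in IFNγ/LPS CM, 10.2-fold higher (adjusted p = 4.3e-19). Trim5 was the lowest of the 3 in IFNγ/LPS CM per kilobase, at 4.14 CPM per kb. It went from 3.78, 3.69, 3.69 and 4.08 CPM to 14.9, 17.7, 14.8 and 13.7 CPM, 4-fold higher (adjusted p = 2.82e-13). No library of one medium overlapped with the other for any of them. These genes are hard to separate by reads: 52.9% of the 31-base stretches of Trim5 occur in other genes, 37.9% in Trim12c, and the share for Trim12c was 47.7% and for Trim12a 15.7%. Their sum, which does not depend on how shared reads were split among them, rose from 32.6 ± 2.47 to 330 ± 12.7 CPM, 10.1-fold.

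Trim34a, a related PRY-SPRY gene that lies between Trim6 and Trim5, was at 8.75, 6.83, 7.31 and 7.17 CPM in naive CM and at 134, 131, 145 and 124 CPM in IFNγ/LPS CM. It rose 17.8-fold with no overlap (adjusted p = 4.32e-20). Its copy Trim34b shares 69% of its 31-base stretches with Trim34a and is therefore uncertain. Trim34b had 41 counts over naive CM and 76 over IFNγ/LPS CM, a ratio of scaled counts of 2.62 (exact 95% interval 1.77 to 3.93), and although edgeR called it (adjusted p = 0.00989) its libraries overlapped, at 0.146, 0.129, 0.385 and 0.237 CPM against 0.645, 0.318, 0.443 and 0.737 CPM. With library totals the Trim34b call was lost (log2 fold change 0.95, adjusted p = 0.0515). The sum of the pair rose 17.3-fold, from 7.74 ± 0.83 to 134 ± 8.91 CPM. An antisense gene, Gm47248, overlaps 609 exon bases of Trim34a on the other strand.

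Trim21, Trim25, Trim56 and Trim26 were also higher. Trim21, the cytosolic antibody receptor, was at 13.1, 10.9, 11.2 and 11.7 CPM in naive CM and at 275, 276, 279 and 263 CPM in IFNγ/LPS CM, 23.3-fold higher (log2 fold change 4.54, SE 0.0624, adjusted p = 1.16e-21). Trim25, the ligase that ubiquitinates RIG-I, went from 6.07, 6.4, 6.32 and 5.27 CPM to 28, 27, 36.7 and 32.3 CPM, 5.16-fold (adjusted p = 1.47e-11). Trim56, an antiviral ligase linked to STING signalling, was already abundant, at 91.3, 83.7, 79.4 and 80.6 CPM in naive CM, and reached 250, 260, 255 and 254 CPM, 3.04-fold (adjusted p = 8.56e-17). Neither of these genes nor Trim21 had overlapping libraries. Trim26, a regulator of IRF3, was at 37.7, 36.9, 36.7 and 38.0 CPM in naive CM and at 127, 124, 128 and 124 CPM in IFNγ/LPS CM, 3.36-fold higher (adjusted p = 1.79e-18). Trim56 and Trim26 thus had smaller folds than Trim21 and Trim25 from higher starting levels in CPM.

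The remaining interferon-list members were scarce. Trim14, a RING-less adaptor of MAVS, had 21 counts over the 4 naive libraries and 1018 over IFNγ/LPS CM, where it was at 6.19, 7.58, 7.37 and 7.67 CPM, a ratio of 68.4 (exact 95% interval 44.5 to 111, counting error only). Its exons overlap those of Nans on the opposite strand by 1356 bases. Trim69, a centrosomal ligase also known to restrict vesicular stomatitis virus, had 22 counts against 183 and a ratio of 11.7 (7.53 to 19.2), at 1.56, 1.1, 1.36 and 1.12 CPM in IFNγ/LPS CM. Trim6, which makes free ubiquitin chains that activate IKKε, had 51 counts against 154 and a ratio of 4.26 (3.09 to 5.97), at 1.05, 0.752, 1.5 and 1.03 CPM in IFNγ/LPS CM. For all 3 the IFNγ/LPS libraries lay above all naive ones. Trim38, a regulator of TAB2 and TAB3, was the exception on the list: it had 8 counts over naive CM and 7 over IFNγ/LPS CM, too few to be tested, and no difference was detectable at this depth (ratio 1.24, 0.381 to 3.9).

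**Figure D3:**
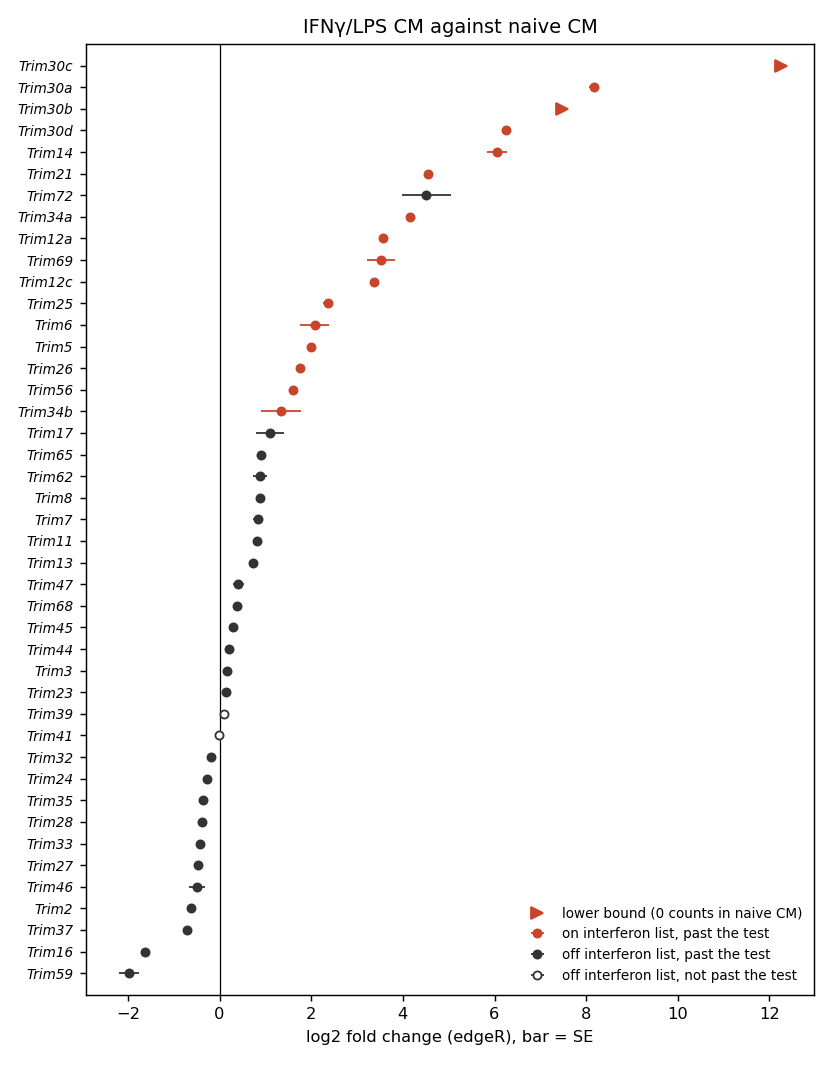
log2 fold change (edgeR) of the 43 tested TRIM genes in IFNγ/LPS CM against naive CM, with the SE as a bar; red, interferon list; black, off the list; filled, past the test; open, not past it; triangles, lower bounds for genes with 0 counts in naive CM. Red points fill the upper end from Trim30c down to Trim34b at 1.34, with only Trim72 among them in black, and the off-list genes run from Trim17 at 1.1 to Trim59 at -1.98.

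Most off-list members that were called differed by less than 2-fold. Of the 25, 21 did so, 12 of them higher (1.11- to 1.88-fold) and 9 lower (1.14- to 1.63-fold). This was common: of all genes 71.9% were called, with 13.9% at least 2-fold higher and 15% at least 2-fold lower. The 2 off-list members that were at least 2-fold lower were Trim16 and Trim59. Trim16 was at 310, 303, 320 and 285 CPM in regular medium, at 247, 240, 236 and 237 CPM in naive CM and at 77.4, 84.6, 75.0 and 76.3 CPM in IFNγ/LPS CM. The 3 groups did not overlap, and the log2 fold change between the conditioned media was -1.62 (SE 0.0453, adjusted p = 7.14e-17), a 3.06-fold lower level. Trim59, a TRIM protein with a membrane anchor, was at 22.7, 27.8, 32.5 and 26.8 CPM in naive CM and at 4.81, 5.61, 7.15 and 10.2 CPM in IFNγ/LPS CM, 3.94-fold lower (log2 fold change -1.98, SE 0.216, adjusted p = 9.68e-06). The groups did not overlap, and in CPM the naive libraries were the more widely spread.

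At least 2-fold higher among the off-list members were Trim72 and Trim17, both scarce. Trim72, the membrane repair protein MG53 of striated muscle, had 8 counts over naive CM and 138 over IFNγ/LPS CM, where it was at 1.43, 0.781, 0.693 and 0.973 CPM, a ratio of 24.4 (exact 95% interval 12 to 57.5). It passed the low-count filter only through the IFNγ/LPS libraries, and the antisense gene Gm15533 overlaps 617 of its exon bases. Trim17 went from 62 to 94 counts, a ratio of 2.14 (1.54 to 3), and shares 708 exon bases on the same strand with the histone gene Hist3h2a, so its reads are uncertain. A further 6 off-list genes were 1.67- to 1.88-fold higher: Trim65 (1.88-fold), a ligase of the RNA sensor MDA5, Trim62 (1.86-fold), Trim8 (1.85-fold), a partner of SOCS1, Trim7 (1.78-fold), which binds glycogenin, Trim11 (1.76-fold) and Trim13 (1.67-fold). Trim8, for example, was at 46.6, 45.5, 47.3 and 42.8 CPM in naive CM and at 83.4, 78.2, 85.9 and 88.4 CPM in IFNγ/LPS CM (adjusted p = 3.84e-07). Against regular medium Trim62 was not called in edgeR (log2 fold change 0.30, adjusted p = 0.0714), while the rest of the 6 were called higher. Of the 31-base stretches of Trim13, 28.7% occur in Gm9359, and Trim65 shares 225 exon bases on the same strand with Trim47.

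Trim28, Trim35, Trim44 and Trim47, off-list members among the highest per kilobase, differed by smaller folds, with no overlap between the libraries of naive CM and IFNγ/LPS CM. Such separation was common over all genes, 34.9% toward higher and 34.6% toward lower levels in IFNγ/LPS CM. Trim28 (KAP1), the corepressor that KRAB zinc finger proteins recruit to silence retroelements, was at 158, 141, 152 and 140 CPM in regular medium, at 174, 179, 191 and 184 CPM in naive CM and at 139, 141, 140 and 137 CPM in IFNγ/LPS CM. It was thus 1.31-fold lower in IFNγ/LPS CM than in naive CM (adjusted p = 1.68e-07), at a level that overlapped with regular medium. Trim35 was at 194, 195, 193 and 195 CPM in naive CM and at 150, 153, 148 and 153 CPM in IFNγ/LPS CM, 1.29-fold lower (adjusted p = 1.46e-08). Trim44, which lacks a RING and has a zinc finger of the kind found in deubiquitinases, was at 114, 117, 117 and 114 CPM in naive CM and at 131, 130, 138 and 133 CPM in IFNγ/LPS CM. It was 1.15-fold higher with TMM (log2 fold change 0.20, adjusted p = 9.74e-05) but lower with library totals (log2 fold change -0.19), so its direction depends on the scaling. Trim47 was at 38.9, 42.2, 45.9 and 41.9 CPM in naive CM and at 55.2, 54.2, 52.5 and 61.8 CPM in IFNγ/LPS CM, 1.33-fold higher (adjusted p = 0.0117), a call that was lost with library totals (log2 fold change 0.02, adjusted p = 0.893). Trim39 and Trim41 were the 2 tested members that were not called, with log2 fold changes of 0.09 and -0.01.

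The calls were also counted by C-terminal domain, beside 36.1% higher and 35.8% lower over all genes and without a test between the classes, some of which hold 1 to 3 tested genes. Each member was put in 1 class by a gene list that was not checked against protein sequences. Members with a COS box were kept apart whatever other domains they carry. Of 28 tested members listed as PRY-SPRY, 23 were higher, 3 were lower and 2 were not called. Among the 23 were 6 that passed the low-count filter only through the IFNγ/LPS libraries, in which they were high. These were Trim14, Trim30b, Trim30c, Trim34b, Trim69 and Trim72, so their calls say little about the class. Without the interferon list, 13 PRY-SPRY members remained, 8 higher, Trim72 among them, and 3 lower (median log2 fold change 0.41). All 3 tested members of the TIF1 type (Trim24, Trim28 and Trim33), which carry a PHD finger and a bromodomain and regulate transcription, were lower, by log2 fold changes of -0.27 to -0.42. Among the NHL-repeat members, Trim2 (-0.63) and Trim32 (-0.19) were lower and Trim3 was higher (0.16). Trim3 turned to lower with library totals, as did Trim23. The single tested member with a COS box, Trim46, a protein of axonal microtubules, was called lower (-0.49), but its libraries overlapped and the call was lost without naive CM replicate 4, without IFNγ/LPS CM replicate 1 or without IFNγ/LPS CM replicate 3. Of 8 members with other or no C-terminal domains, 6 were higher, Trim56 of the interferon list among them, and 2, Trim37 (-0.71) and Trim59, were lower. Trim23, one of the 6, was no longer called without IFNγ/LPS CM replicate 1.

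TRIM proteins with other symbols were read beside the members. Pml, the scaffold of nuclear bodies, was at 72.1, 72.2, 83.4 and 74.9 CPM in naive CM and at 246, 250, 247 and 258 CPM in IFNγ/LPS CM, 3.31-fold higher (adjusted p = 4.58e-16). Mid1, a microtubule-bound ligase, was 1.66-fold higher, at 15.8 against 26.3 CPM (adjusted p = 7.37e-09), and its paralogue Mid2 was 1.24-fold lower, at 24.2 against 19.6 CPM (adjusted p = 3.57e-04). Mefv, the pyrin gene, had no count with naive CM, 6 with IFNγ/LPS CM and no test. The 2 Mid genes thus moved in opposite directions.

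In the genome, 16 of the 51 members lie on chromosome 7, and 13 of these stand within 3076 kb of its distal part (GRCm38, chr7:102557921-105633571). In order they are Trim21, Trim68, Trim6, Trim34a, Trim5, Trim12a, Trim34b, Trim12c, Trim30b, Trim30c, Trim30a, Trim30d and Trim3. Their summed level rose from 95.1 ± 3.76 CPM in naive CM to 1559 ± 41.5 CPM in IFNγ/LPS CM. It made 6.12% of the family's CPM in regular medium, 5.97% with naive CM and 50% with IFNγ/LPS CM. The 10 genes from Trim6 (start 104218793) to Trim30d (end 104507849) were all on the interferon list and all higher, beside 36.1% of all genes. Of this run, Trim30b, Trim30c and Trim34b passed the low-count filter only through the IFNγ/LPS libraries, and the Trim34b call was lost with library totals. The genes beyond the run behaved less uniformly: Trim21 rose as well, while Trim68 and Trim3, both off the list, had log2 fold changes of 0.39 and 0.16. Neighbours inside the run differed widely, from Trim34b at 0.536 CPM to Trim30a at 563 CPM in IFNγ/LPS CM, or from 0.29 to 137 CPM per kb.

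**Figure D4:**
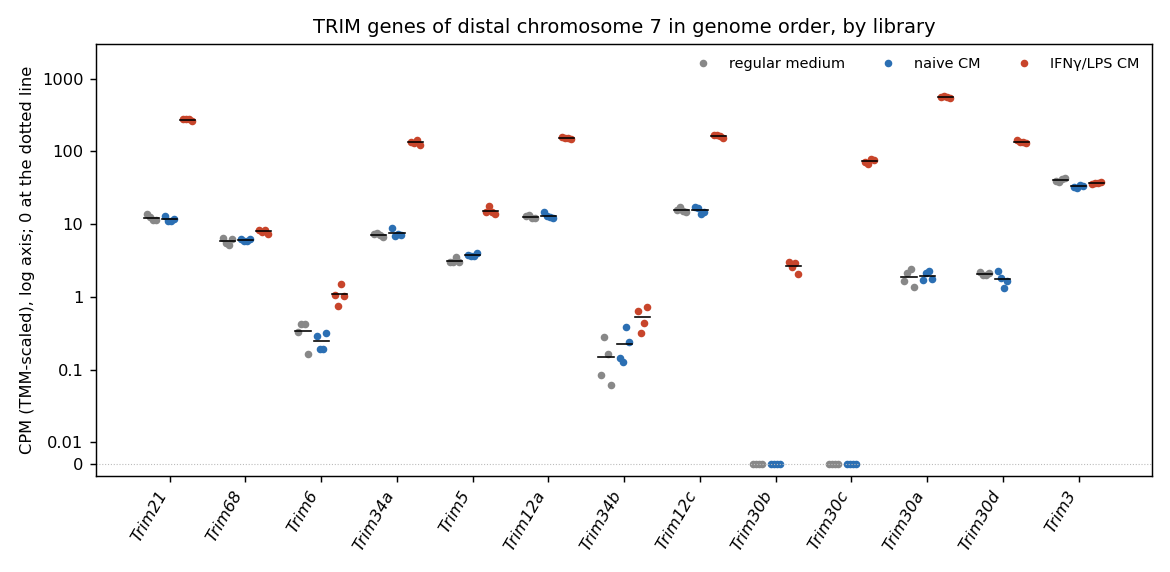
CPM (TMM-scaled, log axis, 0 drawn on the dotted line) in each library of the 13 TRIM genes of distal chromosome 7, in genome order but not to distance, 4 points per group with a bar at the mean; grey, regular medium; blue, naive CM; red, IFNγ/LPS CM. The red points stand apart at Trim21 and from Trim6 to Trim30d, except for Trim34b, where red and blue overlap, and lie close to the others at Trim68 and Trim3.

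The sensors, adaptors and kinases that TRIM ligases act on were examined as a list of 21 genes. Of these 14 were higher in IFNγ/LPS CM than in naive CM, 4 were lower and 3 were not called, with a median log2 fold change of 1.1, beside 36.1% of all genes higher and 35.8% lower. Among the higher ones were Irf7, the interferon-amplifying transcription factor (log2 fold change 7.83, from 2.99 to 679 CPM), and Ifih1, which encodes MDA5 (4.58, from 16.5 to 398 CPM). Rigi, the target of Trim25, was 12.3-fold higher, at 44.9 against 550 CPM. Mavs, the adaptor below both sensors, was 1.42-fold lower, and Irf3, Map3k7 and Cactin were not called. Of 14 E2 enzymes, which hand ubiquitin to the RING domain, 7 were higher, 5 lower and 2 not called, with a median of 0.12. The 5 lower are about the share of all genes that were lower (35.8%), and 36.1% of all genes were higher. Only Ube2l6 (4.13), the E2 of ISG15, and Ube2e2 (1.55) were at least 2-fold higher, and Ube2e3 was lower by 1.92-fold. Ube2n, the E2 of K63-linked chains, was 1.32-fold lower, at 93.5 against 71 CPM.

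Naive CM against regular medium sets medium of unstimulated macrophages against a medium whose serum content is not given. Among all genes 34.7% were called, 18.3% higher and 16.4% lower, and of the 43 members 4 were higher, 8 were lower and 31 were not called. Over all genes, 17.2% had every naive library above every one of regular medium, and 15.5% had every one below. No member was called with a difference of 2-fold or more, against 2.87% of all genes at least 2-fold higher and 0.948% at least 2-fold lower. The largest fitted difference, that of Trim72 (3.43-fold, adjusted p = 0.225), rested on 2 counts in regular medium and 8 in naive CM. On the interferon list only Trim5 (log2 fold change 0.29, adjusted p = 0.0298) and Trim56 (-0.24, adjusted p = 4.4e-04) were called, and the list's median was 0.00. The call of Trim5 was lost without filtering, with limma-voom and without any 1 of 4 libraries (regular medium replicate 1, 2 or 4 and naive CM replicate 4), with adjusted p of 0.0503 to 0.0926. In turn Trim25 was called lower without regular medium replicate 1 (-0.31, adjusted p = 0.0421), and Trim30d without naive CM replicate 1 (-0.33, adjusted p = 0.0198). Trim30a, by comparison, was at 1.91 ± 0.459 CPM in regular medium and 1.97 ± 0.265 CPM in naive CM.

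**Figure D5:**
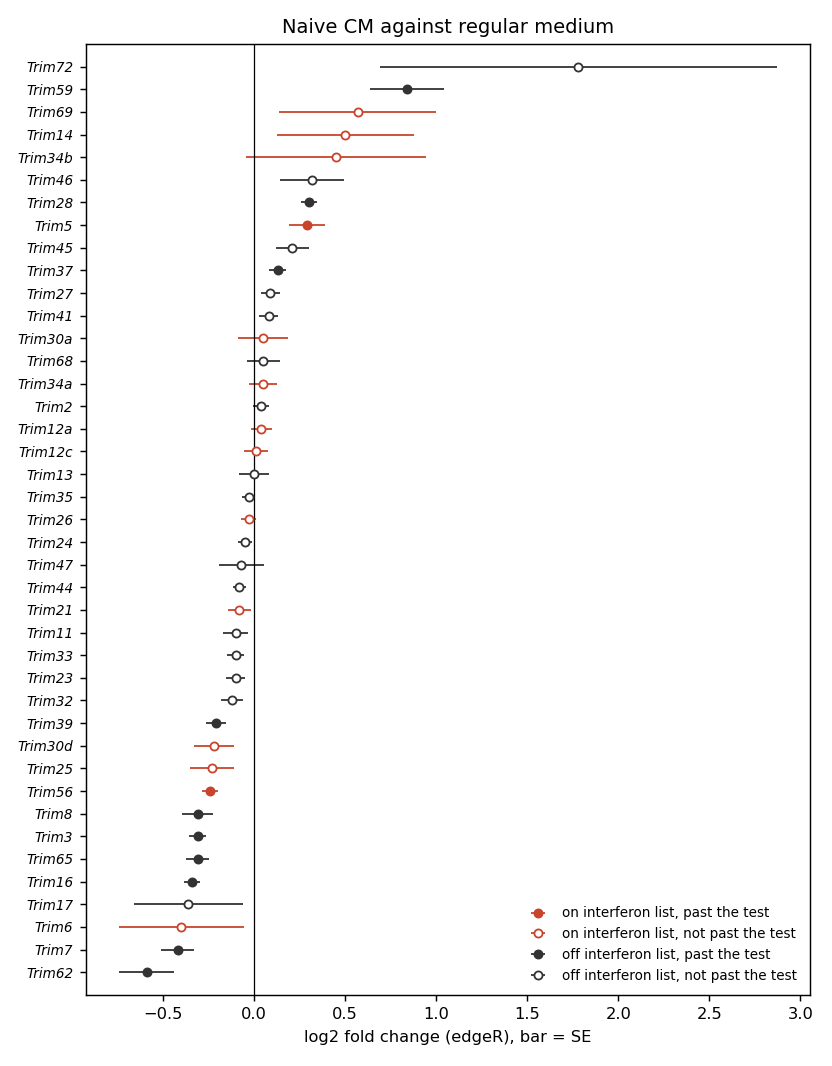
log2 fold change (edgeR) of 41 tested TRIM genes in naive CM against regular medium, with the SE as a bar; red, interferon list; black, off the list; filled, past the test; open, not past it. Trim30b and Trim30c, with 0 counts in both groups, are left out. The called genes lie between -0.59 (Trim62) and 0.84 (Trim59), and the widest bars belong to genes with few counts such as Trim72.

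The largest called changes in this comparison were in off-list genes. Trim59 was at 12.4, 15.9, 16.4 and 16.5 CPM in regular medium and at 22.7 to 32.5 CPM in naive CM, 1.79-fold higher without overlap (log2 fold change 0.84, SE 0.201, adjusted p = 0.00853). Trim62 was at 1.94, 2.51, 2.54 and 2.95 CPM in regular medium and at 1.70, 1.83, 1.54 and 1.49 CPM in naive CM, 1.51-fold lower (adjusted p = 0.00467). Trim7 was at 12.9, 12.7, 11.6 and 12.7 CPM in regular medium and at 8.36, 9.43, 9.56 and 9.98 CPM in naive CM, 1.34-fold lower (adjusted p = 0.00104). Trim16 (1.27-fold) and Trim65 (1.24-fold) were lower too, with adjusted p of 5.62e-06 and 8.22e-04. Trim28 (1.23-fold, adjusted p = 2.44e-05) and Trim37 (1.1-fold, adjusted p = 0.0313) were the other members that were higher, and Trim3, Trim8 and Trim39 the other ones that were lower. The count of higher members fell from 4 to 2 without regular medium replicate 4, where Trim5 and Trim37 were no longer called, and Trim37 was also lost without regular medium replicate 3 and without naive CM replicate 2 or 3.

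IFNγ/LPS CM against regular medium shares its IFNγ/LPS libraries with the first comparison, and regular medium with the second, so its values are given beside them and not as a further test. Among all genes 71.8% were called, 35.4% higher and 36.4% lower, and of the 43 members 27 were higher and 10 lower, or 21 and 16 with library totals, which moved the median of all genes to -0.41. All 16 tested interferon-list genes were higher (median log2 fold change 3.84), among them Trim30a (300-fold), Trim21 (22.1-fold), Trim34a (18.5-fold), Trim12a (12.1-fold) and Trim25 (4.41-fold). Of the 16, 5 passed the low-count filter only through the IFNγ/LPS libraries, in which they were high. The other 11 were all higher. Trim16 was 3.89-fold lower than in regular medium and 3.06-fold lower than in naive CM. Trim59, which was higher in naive CM than in regular medium, was 2.2-fold lower in IFNγ/LPS CM than in regular medium. Trim28 was at 139 CPM against 148 CPM and was not called (adjusted p = 0.0904). It was called lower with library totals and without regular medium replicate 2 or 4. Trim47 was 1.26-fold higher with overlapping libraries (adjusted p = 0.029), a call lost without filtering, in a fit of these 2 groups alone and without any 1 of 5 libraries, namely regular medium replicate 1, 2 or 3 and IFNγ/LPS CM replicate 1 or 4 (adjusted p of 0.0508 to 0.0826). Its log2 fold change was -0.05 with library totals, and that of Trim44 went from 0.13 to -0.26. Trim17 was no longer called with library totals, without filtering or without regular medium replicate 2 or 3 or IFNγ/LPS CM replicate 3, nor Trim3 without IFNγ/LPS CM replicate 1.

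Besides Trim38, 7 members were too scarce to be tested. Trim15, a PRY-SPRY gene that lies beside Trim26 on chromosome 17, had no count in regular medium or naive CM and was at 0.403, 0.318, 0.332 and 0.265 CPM in IFNγ/LPS CM. Its 47 counts there are 22.1-fold above a floor of 3 counts over naive CM (exact 95% lower limit 17.3-fold). An altered filter could let it in only through the IFNγ/LPS libraries, so the calls of higher that edgeR then made add no support. Trim66, a TIF1-type gene, had 15 counts over the naive CM libraries against 32 with IFNγ/LPS CM, a ratio of 3.01 (exact 95% interval 1.58 to 5.99). Trim36, Trim43a, Trim60, Trim61 and Trim71 had at most 13 counts in any group.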

How the data were processed

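The authors deposited estimated counts per gene, 1 column per library, made with Salmon 1.10.1 on the mm10 build per the submitters' processing notes; annotation and summing to genes: not given in the sources used here. Libraries were stranded and poly(A)-selected, per the labels' protocols. Columns were joined to samples by name, where M0 was taken for naive macrophages and M1 for those given IFNγ and LPS, as these states are usually called. Of 55822 Ensembl identifiers, 51344 (92%) matched a symbol in GENCODE M21 without their version. Unmatched identifiers took 3.53 to 5.86% of counts per library.

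All genes were fitted in 1 model of 12 libraries (edgeR 4.0.16, R 4.3.3; TMM, filterByExpr by group, quasi-likelihood F-test, two-sided, 9 residual degrees of freedom), and p-values were adjusted over 16140 genes. The filter asked for about 0.224 CPM in 4 libraries. TMM factors were 1.08 to 1.11 in regular medium and naive CM and 0.834 to 0.842 in IFNγ/LPS CM. SEs are the fold change over the square root of F. For genes with under 100 counts in the lower group, ratios of summed counts with exact intervals are given, which cover counting error only. Levels per kilobase use the union of exons. The edgeR fit was tested on simulated data.

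The members and gene lists were chosen with earlier results of these data known. Described singly are the interferon list, members at least 2-fold changed between the conditioned media with at least 1 CPM, the 8 highest per kilobase, the 5 most changed between naive CM and regular medium, and Pml, Mid1, Mid2 and Mefv. Others named were chosen after their values were seen. The values of 1 gene on the list of sensors, adaptors and kinases are not reported here. Alternatives were DESeq2 1.42.0 size factors and Wald test, library totals, other filters, limma 3.58.1 voom, the 2 groups compared alone, a replicate block, and leaving out each library.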

Additional observations from a re-analysis of the deposited data

Results flagged for a closer look

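In 84 sets of 4 libraries (the 30 genes described singly, in each medium, without sets at 0 throughout), 1 library stood apart from the other 3 by Dixon's test in 5, where chance gives about 1 in 20, or 4.2 sets. Trim5 was at 3.49 CPM in regular medium replicate 3 against 3 to 3.06 CPM in the others, and Trim7 was at 11.6 CPM in the same library against 12.7 to 12.9 CPM. Trim59 was at 12.4 CPM in regular medium replicate 1 against 15.9 to 16.5 CPM. In IFNγ/LPS CM, Trim38 was at 0.108 CPM in replicate 1 against 0.0277 to 0.0295 CPM and Mefv at 0.0885 CPM in replicate 4 against 0.0269 to 0.0289 CPM, both from a handful of counts.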

How the results depend on the processing

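Library totals in place of TMM had the widest effect. Members lower in IFNγ/LPS CM than in regular medium went from 10 to 16, Trim44 turned to lower against naive CM (log2 fold change -0.19, adjusted p = 3.09e-04) and against regular medium (-0.26, adjusted p = 6.58e-06), and Trim47 went to -0.05 against regular medium. Leaving out 1 library at a time gave 29 to 32 members higher and 10 to 11 lower in IFNγ/LPS CM against naive CM, 26 to 29 and 9 to 12 against regular medium, and, in naive CM against regular medium, 2 to 4 higher and 8 to 9 lower. With the replicate number as a block, IFNγ/LPS CM against naive CM kept all 41 calls, 30 higher and 11 lower, and the other comparisons kept all 12 and 37. Whether libraries of the same number share an animal or culture is not given, and the main model did not pair them. Their deviations from the group means correlated at -0.134 to 0.197 over 12 pairs, 3 of them over 0.1. Of 12 libraries, 1 was closest to its own number in both other groups. Such weak correlations cannot settle whether the libraries were paired. A filter of 1 CPM removed Trim6, Trim17, Trim34b, Trim69 and Trim72 from testing. Per kilobase of the longest transcript, Trim16 (53.1) led Trim30a (50.1) over all libraries, and Trim28 passed Trim30c in IFNγ/LPS CM. Depth limits what can be said of the 8 untested members and of how reads were split among near-identical copies.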
